A study of Mus musculus with 3 samples.

Results

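Keratin genes were examined in sorted stroma cells of mouse tumours. They were chosen by name alone: every gene whose symbol is Krt followed by a number, with or without a letter, and whose probe set carries that single symbol. This gave 53 genes of 22087 named on the array, each with 1 probe set, and the keratin-associated protein genes were left out. Of 55 listed keratin symbols, Krt5 and Krt85 had no probe set of their own under this rule and were not analysed here as members.

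The samples were 3 preparations of total RNA from stroma of Dicer1 +/- tumours, numbered 1 to 3 in their titles. Dicer1 encodes the endonuclease that cuts microRNA precursors. The cells were live and had been sorted as negative for PECAM1, an endothelial surface protein, and for tdTomato, the red fluorescent protein that marked tumour cells. The sources used here give neither the driver of tdTomato, nor the anatomical site of the tumours, nor the age of the mice. No second genotype was analysed, so there was no comparison of groups and no test. Nothing in the labels ties the samples to separate animals. Sample 1 differed from the others in sex-linked genes, given below, so it came from another animal than they did, while the spread between samples 2 and 3 may be technical.

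Keratins are the intermediate filament proteins of epithelial cells. A filament needs a type I and a type II keratin, which join as partners, and epithelia are told apart by the pairs they make. Krt8 with Krt18 is the pair of simple epithelia, Krt5 with Krt14 that of the basal layer of stratified epithelia, and Krt1 with Krt10 that of the differentiating epidermis. Other members build hair and the inner root sheath around it. Connective tissue cells and leukocytes mainly use vimentin instead.

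The genes lie in a pair of clusters, with type I genes on mouse chromosome 11 and type II genes on chromosome 15. Krt18 is the type I exception that lies beside Krt8 on chromosome 15. RefSeq held a promoter (build GRCm38.p6) for 35 of the 53 genes. The last 100 bases before the gene start are shown for the simple pair Krt8 and Krt18, for Krt7 as another simple keratin, for Krt10 from the epidermis, and for the neighbouring hair keratins Krt34, Krt31 and Krt32. Capitals mark the letters TATAAA, searched on the gene's strand in the last 50 bases, and GGGCGG (the GC box), searched on both strands.
Krt8, chr15:102004343-102004442, minus strand: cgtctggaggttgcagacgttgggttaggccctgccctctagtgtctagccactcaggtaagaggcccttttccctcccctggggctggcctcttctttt
Krt18, chr15:102028116-102028215, plus strand: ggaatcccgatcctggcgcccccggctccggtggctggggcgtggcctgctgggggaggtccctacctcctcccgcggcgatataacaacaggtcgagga
Krt7, chr15:101412303-101412402, plus strand: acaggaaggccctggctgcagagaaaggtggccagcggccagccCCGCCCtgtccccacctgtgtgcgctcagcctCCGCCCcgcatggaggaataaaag
Krt10, chr11:99389365-99389464, minus strand: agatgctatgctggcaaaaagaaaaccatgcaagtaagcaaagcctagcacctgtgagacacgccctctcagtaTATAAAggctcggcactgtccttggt
Krt34, chr11:100041555-100041654, minus strand: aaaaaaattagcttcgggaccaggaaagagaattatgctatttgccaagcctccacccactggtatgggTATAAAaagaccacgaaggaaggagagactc
Krt31, chr11:100050552-100050651, minus strand: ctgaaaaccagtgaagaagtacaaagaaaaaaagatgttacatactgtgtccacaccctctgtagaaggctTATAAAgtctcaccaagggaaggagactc
Krt32, chr11:100088270-100088369, minus strand: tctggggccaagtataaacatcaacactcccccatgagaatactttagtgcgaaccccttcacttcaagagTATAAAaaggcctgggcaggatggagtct

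Levels are log2 intensities as deposited, where a difference of 1 is 2-fold. Detection was judged against 1438 probe sets for olfactory, taste and vomeronasal receptors, whose genes stroma is not known to use. A gene counted as detected on an array if it exceeded their 95th percentile there, a background reference of 5.16 in sample 1, 5.11 in sample 2 and 5.20 in sample 3. Probes differ in brightness, so levels of different genes are not ranked, and a gene below the reference is not shown to be absent. The fibroblast gene Pdgfra was at 8.55, 9.24 and 7.82 and the pan-leukocyte gene Ptprc at 11.19, 10.57 and 11.05 in samples 1 to 3. Pecam1, whose protein was gated out and which leukocytes also make, was detected in each, at 8.02, 7.20 and 8.25. Sample 1 stood apart in sex-linked genes, with Xist at 9.78 against 3.43 and 3.49 in samples 2 and 3, and Kdm5d at 3.67 against 7.03 and 7.50.

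Of the 53 keratins, 13 (24.5%) were detected on all 3 arrays, while 60.5% of the 20658 named genes outside the receptor reference were. Among protein-coding genes the share was 66.9%. On at least 1 array 15 keratins (28.3%) were detected, beside 66% of all genes, and 38 were never detected. The 13 were Krt80, the simple pair Krt8 and Krt18, Krt10 and Krt42, and the hair keratins Krt32, Krt33b, Krt34, Krt35, Krt81, Krt83, Krt86 and Krt88. Leaving out any 1 sample, sample 1 included, again gave 13 genes detected on both remaining arrays. That count was fixed in advance, because Krt14 and Krt40, the other keratins detected at all, each passed on 1 array only. The count depended on where the reference was set: it was 24 with the 90th percentile and 1, Krt80, with the 99th.

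**Figure D1:**
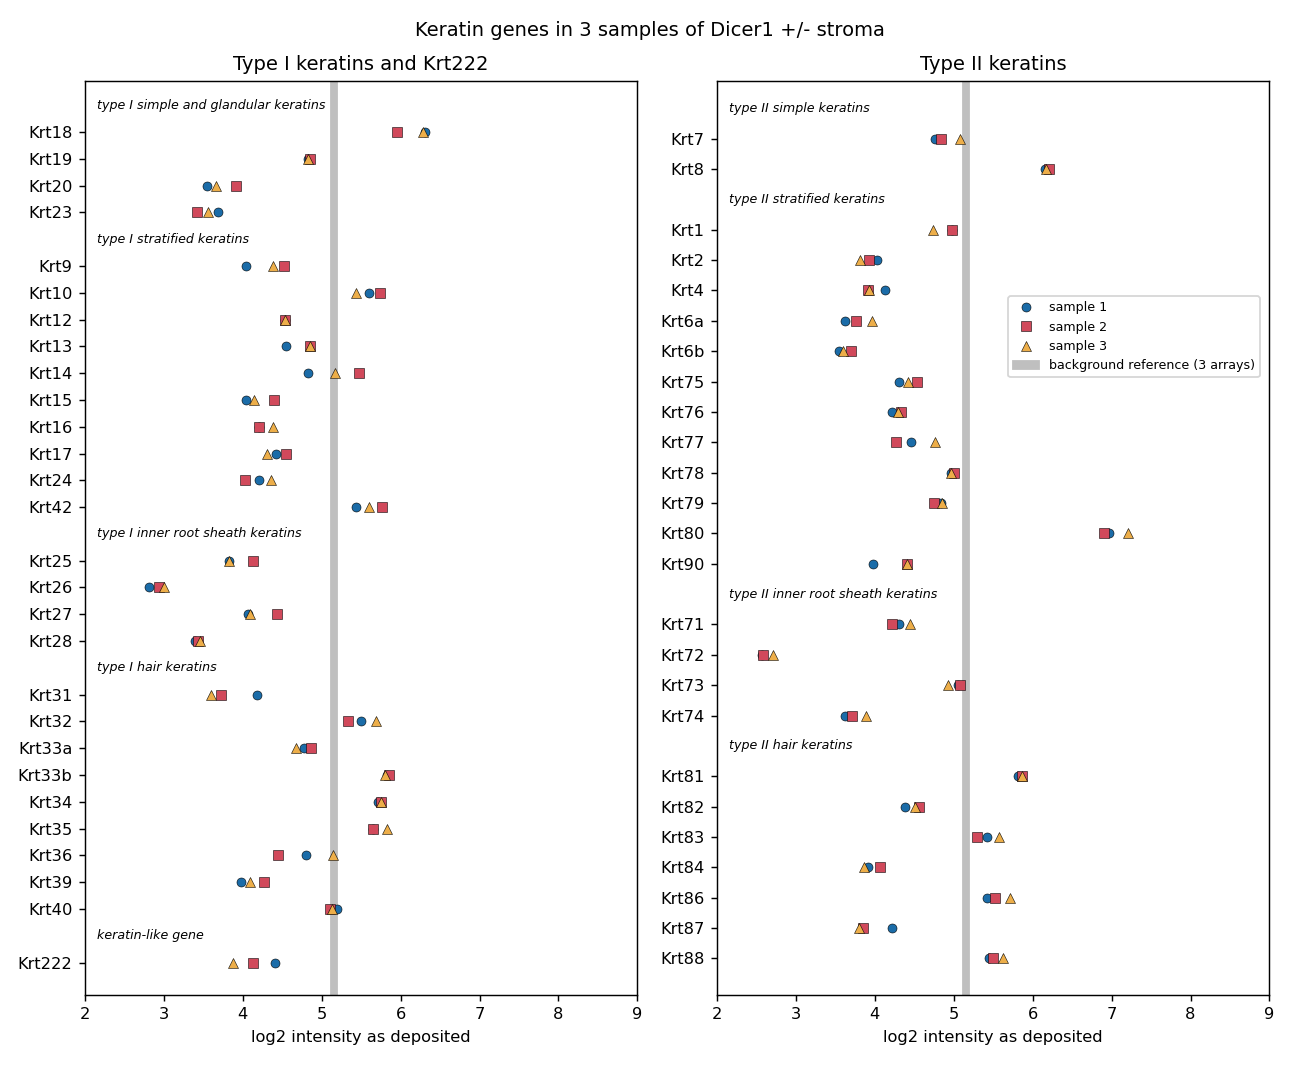
Log2 intensity (x axis) of the 53 keratin genes in samples 1, 2 and 3 (circle, square, triangle), grouped by role, with type I genes and Krt222 on the left and type II genes on the right. The grey band spans the background reference of the 3 arrays, 5.11 to 5.20; most genes lie to its left and Krt80, Krt8 and Krt18 lie clear of it on the right.

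Among the simple keratins, both partners of the Krt8 and Krt18 pair were detected. Krt8, the type II partner, was at 6.15, 6.21 and 6.17 in samples 1 to 3, with a mean of 6.18 ± 0.031 (SD, n = 3). Krt18, the type I partner, was at 6.31, 5.96 and 6.28, with a mean of 6.18 ± 0.19 (SD, n = 3). Krt18 was lowest in sample 2, whereas the Krt8 values lay within 0.060 of each other. On the 3 arrays 1.39% to 1.67% of the receptor probe sets were as bright as Krt8 or brighter, and 1.25% to 2.29% for Krt18. Both genes therefore fell below the reference when the 99th percentile was used.

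The other simple keratins were below the reference in every sample. Krt7, a type II keratin of glands and ducts, was at 4.77, 4.84 and 5.08. Krt19, a type I keratin of ducts and of simple epithelia, was at 4.82, 4.85 and 4.82. The values of both lay within 0.4 of the reference on every array. Krt20, of the gut lining and urothelium, and Krt23 ranged from 3.42 to 3.92, further below it.

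Krt80, a type II keratin found in many epithelia, was the member that also passed the 99th percentile of the receptors, in all samples. It was at 6.97, 6.90 and 7.21 in samples 1 to 3, with a mean of 7.03 ± 0.16 (SD, n = 3). These values lay 1.81, 1.79 and 2.01 above the reference, and at most 0.626% of receptor probe sets were as bright. Krt80 was highest in sample 3, by 0.30 over sample 2. It was the single type II keratin of the stratified group to be detected, and the other 11 measured members lay between 3.55 and the reference. Krt78 came near it on each array, 0.19, 0.11 and 0.23 below.

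Of 10 type I keratins of stratified epithelia, Krt10 and Krt42 were detected on all 3 arrays. Krt10, the type I partner of the differentiating epidermis, was at 5.61, 5.74 and 5.44, with a mean of 5.60 ± 0.15 (SD, n = 3). Its partner Krt1 was at 4.98, 4.98 and 4.74, below the reference in each sample. Of the epidermal pair the type I partner alone was detected, and of the simple pair both partners were. Krt42, a mouse type I keratin of skin appendages, was at 5.44, 5.76 and 5.60, with a mean of 5.60 ± 0.16 (SD, n = 3). For Krt10 and Krt42 between 2.85% and 3.96% of the receptor probe sets were as bright or brighter.

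Krt14, the type I keratin of basal cells, passed the reference in 1 sample. It was at 4.83, 5.47 and 5.17 in samples 1 to 3, with a mean of 5.16 ± 0.32 (SD, n = 3), and was detected only in sample 2, with sample 3 lower than the reference by 0.030. Its range of 0.64 was the largest among the 15 keratins detected on at least 1 array. The partner Krt5 shares its probe set with Krt6a, and that probe set was at 4.36, 4.50 and 4.33, below the reference. Krt15, another keratin of basal cells, was at 4.04, 4.40 and 4.14. Both Krt14 and Krt15 were lowest in sample 1 and highest in sample 2, over ranges of 0.64 and 0.36.

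The keratins that stratified epithelia make on injury or rapid growth were not detected. Krt6a was at 3.63, 3.76 and 3.96 and Krt6b at 3.55, 3.69 and 3.60, and their type I partners Krt16 and Krt17 ranged from 4.21 to 4.55. Krt6a and Krt6b are close copies, and their probe sets may share signal. The mucosal pair Krt4 and Krt13 and the corneal Krt12 were also below the reference, at 3.91 to 4.12 for Krt4, 4.55, 4.85 and 4.85 for Krt13 and 4.53 on every array for Krt12. The values of Krt12 were exactly equal on the 3 arrays, and 9 of the 53 keratins (17%) had equal values on at least 1 pair of arrays, beside 15.9% of all genes. Their SDs may understate the spread.

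Hair keratins, the hard keratins of the hair shaft, made up 8 of the 13 detected genes. Of 16 measured, 8 were detected on all 3 arrays, 4 of 9 type I and 4 of 7 type II genes. Outside the hair group 5 of 37 keratins were. The share was below the 60.5% of all genes in both. All 8 lay near the reference, from 5.29 to 5.87, and none passed the 99th percentile of the receptors.

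Among the type I hair keratins, Krt33b was at 5.82, 5.85 and 5.81 in samples 1 to 3 and Krt34 at 5.71, 5.75 and 5.75. Their means were 5.83 ± 0.024 and 5.74 ± 0.025 (SD, n = 3 each). Krt35, an early keratin of the hair matrix, was at 5.65, 5.65 and 5.83, and Krt32, of the hair cuticle, at 5.50, 5.33 and 5.69. Krt32 and Krt35 were highest in sample 3, while Krt33b and Krt34 differed by under 0.05 between samples. Krt33a, a close copy of Krt33b, was at 4.77, 4.86 and 4.67, below the reference. Krt31, which lies between Krt34 and Krt32 on the chromosome, was at 4.18, 3.72 and 3.60.

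Among the type II hair keratins, Krt81 was at 5.81, 5.87 and 5.87, Krt83 at 5.42, 5.29 and 5.58, Krt86 at 5.43, 5.53 and 5.72, and Krt88 at 5.45, 5.49 and 5.62. Krt83, Krt86 and Krt88 were highest in sample 3. Krt81, Krt83 and Krt86 are near-identical genes, and how the array divides signal between them is uncertain. The cuticle keratin Krt82 ranged from 4.39 to 4.56, Krt84 from 3.87 to 4.06 and Krt87 from 3.80 to 4.22, all below the reference. Krt40, a late type I hair keratin, stood on it at 5.20, 5.11 and 5.13 and was detected in sample 1 alone, by 0.036.

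The inner root sheath keratins were not detected in any sample. These are the type I genes Krt25 to Krt28 and the type II genes Krt71 to Krt74, of which RefSeq lists Krt74 as a transcribed pseudogene. Of 8 genes 0 passed on any array, and their values ran from 2.57 to 5.08. Krt73 came nearest, at 5.05, 5.08 and 4.92, and the other 7 stayed below the reference by more than 0.3. The keratin-like gene Krt222 was at 4.41, 4.13 and 3.88.

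In the order of the genes along the chromosomes, the detected hair keratins had detected neighbours. The measured hair keratins form an unbroken run on each chromosome, so detected ones tend to adjoin by position alone. Krt33a, Krt31, Krt87 and Krt84, which were not detected, lie in the same runs. On chromosome 15 Krt88, Krt81, Krt86 and Krt83 follow each other in RefSeq, and on chromosome 11 Krt33b and Krt34, then Krt32 and Krt35, are adjacent, with Krt31 between these pairs. Krt8 and Krt18 close the chromosome 15 cluster side by side. By chromosome, 6 of 27 members on chromosome 11 and 7 of 26 on chromosome 15 were detected on all 3 arrays.

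**Figure D2:**
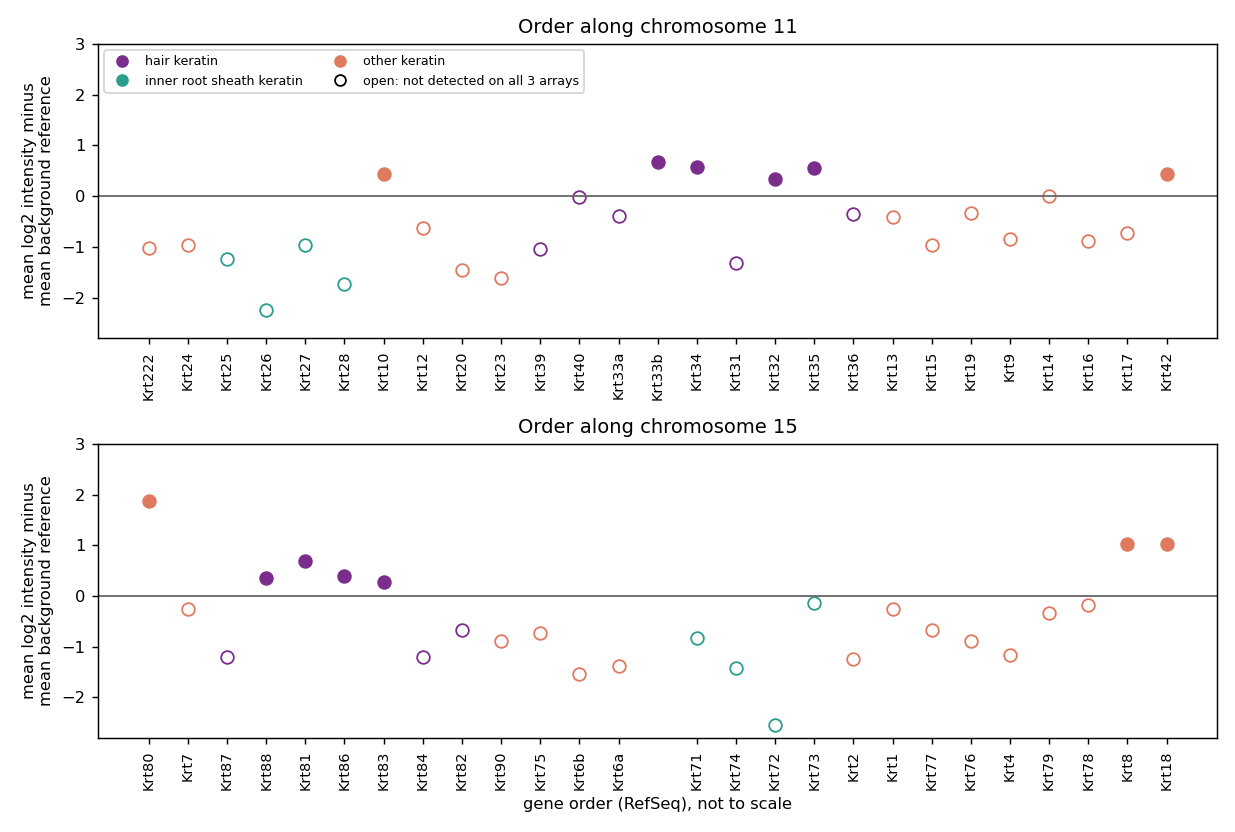
Mean log2 intensity over the 3 samples minus the mean background reference (y axis) for keratin genes in RefSeq order along chromosome 11 (top) and chromosome 15 (bottom), not to scale. Filled points were detected on all 3 arrays, and colours mark hair, inner root sheath and other keratins; the gap before Krt71 is Krt5, which had no probe set of its own. Filled hair keratins sit side by side, within runs that also hold open hair keratins. Krt8 and Krt18 adjoin at the right end of the lower panel.

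Promoters of keratin genes held a TATA box more often than a GC box. The letters TATAAA stood in the last 50 bases before the start in 15 of the 35 promoters (42.9%), beside 2.88% of 27018 promoters of all genes. GGGCGG stood in the last 250 bases of 2 of the 35 (5.71%), beside 32.9% of all. The AP-1 letters TGANTCA, searched in the same 250 bases on both strands, were in 1 of 35 (2.86%), beside 6.87% of all. None of these motifs can overlap another in letters. A match is a description of sequence, and neighbouring keratin genes descend from common ancestors and are not independent.

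The TATAAA letters were found in detected and undetected keratins. Of the 7 keratins that were detected on all 3 arrays and have a promoter in RefSeq, 4 had the TATAAA letters (Krt10, Krt32, Krt33b and Krt34), and of the 28 not detected on all 3 arrays 11 had them, among them Krt31. In the sequences above the letters begin 29 bases before the start in Krt31 and Krt32 and 31 bases before it in Krt34, although Krt31 was below the reference and the other genes above it. Krt8 and Krt18 have no TATAAA in the last 50 bases and no GGGCGG in the 250 bases, with a GC content in the 250 of 58% and 60.4%, while the median of all 35 keratin promoters was 48%. Krt7, which was not detected, had 4 GC boxes and a GC content of 66%. For the 7 detected keratins the median GC content was 43.6%, and for the 28 others it was 48%. Over all array genes with a promoter it was 59.6% for genes detected on all 3 arrays and 50.8% for the rest.

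The median range of keratins between the 3 samples was near that of all genes. None of the 15 keratins detected on at least 1 array had a range above 1, beside 5.7% of all 13636 such genes. In a set of 15 genes a count of 0 does not set keratins apart from that share. Apart from Krt80, Krt8 and Krt18, these keratins lay within 1 of the reference on every array. None therefore had a range above 1 with the highest value in sample 2, beside 2.37% of all. Over the same genes the median range was 0.29 for keratins and 0.31 for all genes. The largest range over all 53 keratins, 0.70, belonged to Krt36, a type I hair keratin that was never detected and was at 4.81, 4.45 and 5.15.

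Which sample was highest varied over the family. Of the 15 keratins, 2 were highest in sample 1, 5 in sample 2 and 7 in sample 3, with 1 tied, while among all genes 28.8%, 32.5% and 32.8% were highest in samples 1 to 3. Over all 53 members without a filter, 8 were highest in sample 1, 21 in sample 2 and 20 in sample 3, with 4 tied, most of them below the reference. That is 15.1%, 39.6% and 37.7% of keratins, beside 28%, 30.2% and 32.5% of all genes. The median deviation of the 15 genes from their own means was -0.028, -0.028 and 0.019 in samples 1 to 3, and over all genes it lay between -0.0070 and 0. In cells pooled this way, fewer cells of a type and less RNA per cell cannot be told apart.

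**Figure D3:**
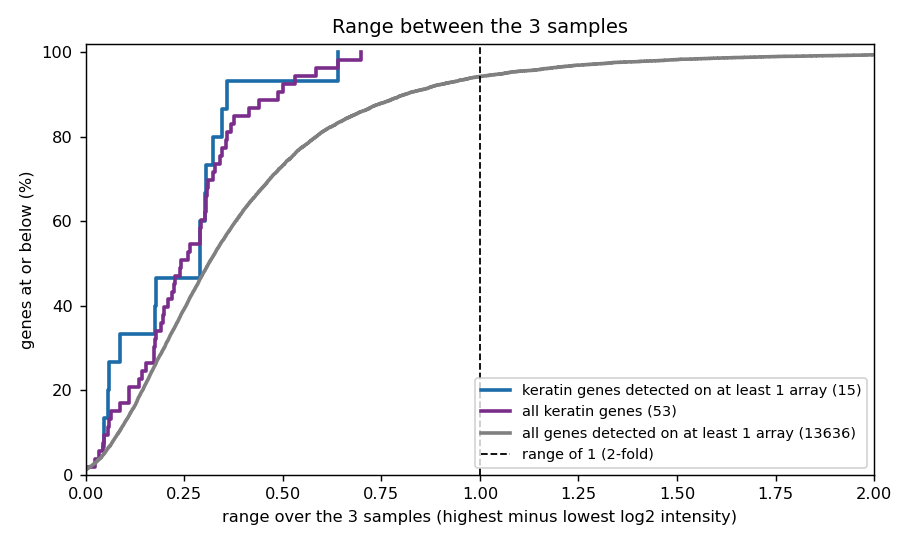
Cumulative share of genes (y axis, %) by their range over the 3 samples (x axis, highest minus lowest log2 intensity, shown up to 2) for keratins detected on at least 1 array, all 53 keratins and all genes detected on at least 1 array. Both keratin curves reach 100% left of the dashed line at a range of 1, at 0.64 and 0.70.

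The partners of keratins at cell junctions were detected in part. Of 18 genes of desmosomes, the junctions to which keratin filaments attach, and of the plakins that line the epidermal cell border, 5 were detected on all 3 arrays. That share was below the 60.5% of all genes. Dsp, which encodes the desmoplakin that ties filaments to the junction, was not, at 4.98, 4.59 and 4.94. Of the plakophilins, Pkp1 was at 5.17, 5.20 and 5.38, close to the reference, Pkp3 at 5.53 on each array and Pkp4 at 7.32, 7.47 and 7.32. Pkp2 was below the reference, from 3.91 to 4.02. The other detected genes were Jup, at 7.24, 7.72 and 7.57, and Ppl, at 5.50, 5.68 and 5.34. No desmosomal cadherin passed on any array. Perp, a membrane protein of desmosomes that is also a p53 target, was at 5.51, 6.17 and 4.75, a range of 1.43, and was highest in sample 2 and lowest in sample 3.

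Of 8 genes of hemidesmosomes, which fix basal cells to the basement membrane, 5 were detected on all 3 arrays, a share near the 60.5% of all genes. They included the linkers Dst at 7.97, 8.57 and 7.88 and Plec at 7.89, 7.97 and 7.98, and the integrin chain Itga6 at 7.62, 7.65 and 7.67. Many cell types outside epithelia also make these 3. The integrin chain Itgb4, the partner of Itga6 in hemidesmosomes, was detected too, at 5.76, 6.23 and 6.16. The laminin chains Lama3 and Lamb3 of epithelial basement membrane were below the reference in every sample, down to 4.44.

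Regulators of keratin genes and barrier genes were likewise detected in part, both at shares below the 60.5% of all genes. Of 16 regulators and partners 7 were detected on all 3 arrays, among them Grhl3, at 5.20, 5.15 and 5.23 on the reference, Klf4 at 9.66, 10.26 and 9.87 and Klf5 at 8.14, 8.43 and 8.94. Which cells held Klf4 and Klf5 was not tested. Trp63, the p63 gene that basal cells of stratified epithelia need, was at 4.91, 4.92 and 4.92 and was not detected. Grhl2, Ovol1, Elf3 and Zfp750 were also below the reference on every array, while Ovol2 and Ehf passed it on each. Sfn, at 7.41, 7.03 and 7.11, and Tchp, at 5.88, 5.98 and 6.17, were the other detected genes. In this list 9 genes passed on no array. Of 17 genes of the epidermal barrier 6 were detected, with Lor, the loricrin gene, at 5.39, 5.54 and 5.54, Tgm1 at 5.89, 6.17 and 5.85 and Klk7 at 5.62, 5.64 and 5.69. Sbsn was at 6.37, 6.67 and 6.12, Calml3 at 5.99, 6.19 and 6.50 and Dmkn at 5.62 on each array. The other 11, among them Ivl and Flg, passed on no array. No member of these lists had a range above 1.

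Markers of cells that could hold keratins were set beside the family. Of 14 genes of simple epithelium and its junctions 9 were detected on all 3 arrays, again a share near that of all genes, with Cldn3 at 5.96, 5.88 and 5.88 and Cldn4 at 5.53, 5.72 and 5.49. Epcam, an epithelial surface protein, passed in sample 3 alone, at 5.14, 4.90 and 5.39 in samples 1 to 3. Cldn7, Esrp1, Rab25 and Marveld3 passed on no array, with values from 3.69 to 4.94. Cdh1, the E-cadherin gene, which some leukocytes also make, was at 7.16, 6.47 and 8.13, and the protease inhibitor gene Spint1 at 6.91, 5.84 and 7.35. The range of Cdh1 was 1.66 and that of Spint1 was also above 1, and both were lowest in sample 2 and highest in sample 3. Krt8 was not lowest in sample 2 and differed by 0.060 over the samples, and Krt18 was lowest there, with a range of 0.35. The list's medians deviated by -0.031, -0.11 and 0.22 in samples 1 to 3, and its part in the keratin values was not tested.

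Mesothelium, the simple epithelium of body cavities, also makes Krt8, Krt18 and Krt19. Of 10 of its genes 4 were detected, a share below that of all genes. Upk3b was at 5.33, 5.45 and 5.29, Wt1 at 5.26, 5.26 and 5.26 and Rspo1 at 6.56, 6.83 and 6.74. Nkain4, the other detected gene, was at 5.67, 6.20 and 6.27. Msln, the mesothelin gene, ranged from 4.52 to 4.59, below the reference. Of 7 genes of thymic epithelium 4 were detected, a share near the 60.5% of all genes. Foxn1, close to the reference, was at 5.21, 5.32 and 5.23, Aire at 5.56, 5.63 and 5.59 and Ccl25 at 5.68, 5.83 and 5.92. Psmb11, from 3.48 to 3.82, Prss16, from 3.51 to 3.57, and Pax1, from 4.38 to 4.46, were below the reference on every array. Ly75, which dendritic cells also make, was at 6.55, 6.55 and 7.60, a range of 1.05. Apart from Rspo1, Nkain4 and Ly75 the values of the detected genes named here lay within 1 of the reference.

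Some genes for secreted products of salivary, oral and airway glands differed between samples by more than any keratin did. Of 16 such genes 7 were detected on all 3 arrays and 12 on at least 1, and 10 of these 12 had a range above 1. Over all genes these shares were 60.5%, 66% and 5.7%. Earlier results of these same arrays, known when the list was written, had such genes highest in sample 2. The list therefore gives no independent support for that pattern. The 6 with the largest ranges were highest in sample 2. Lipf, a lipase, was at 3.11, 9.24 and 3.42 in samples 1 to 3, Bpifb1 at 3.92, 9.36 and 4.91 and the amylase gene Amy1 at 3.73, 5.59 and 3.46. Lipf, Bpifb1, Amy1 and Bpifa2 passed the reference in sample 2 alone, so they were counted only through that sample. The secreted proteins Dcpp1, Dcpp2 and Dcpp3, close copies of each other, were highest in sample 2 too. Dcpp1 was at 8.45, 11.17 and 10.50 in samples 1 to 3, Dcpp2 at 8.91, 11.36 and 10.81 and Dcpp3 at 7.81, 11.45 and 11.03. The mucin genes Muc5b, at 9.12, 8.86 and 10.01, and Muc19, at 5.64, 4.83 and 5.91, went another way, as did Agr2, at 6.53, 6.11 and 7.25. These 3 were lowest in sample 2 and highest in sample 3. Aqp5, a water channel of gland cells, had a range of 0.39.

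Over the 12 gland genes detected on at least 1 array, the list's medians deviated by -0.53, 1.01 and 0.45 in samples 1 to 3. Genes that passed in sample 2 alone were bound to be high there, and the list was chosen with that pattern known. The value in sample 2 is thus partly set by the choice of genes. Of the simple and glandular keratins, Krt7, Krt8, Krt18 and Krt19 had ranges of 0.31, 0.060, 0.35 and 0.025. Of these 4, Krt8 and Krt19 were highest in sample 2, by 0.060 and 0.025 over their lowest value. Krt20 and Krt23, further below the reference, had ranges of 0.38 and 0.27. Krt20 was highest in sample 2 and Krt23 in sample 1. Krt7 peaked in sample 3. Krt18 peaked in sample 1, and its minimum fell in sample 2. Krt14, which gland myoepithelial cells also make, was highest in sample 2 as well. Krt14 passed the reference in that sample alone, so it was counted only through it. Whether gland cells gave any of these keratin values was not tested.

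**Figure D4:**
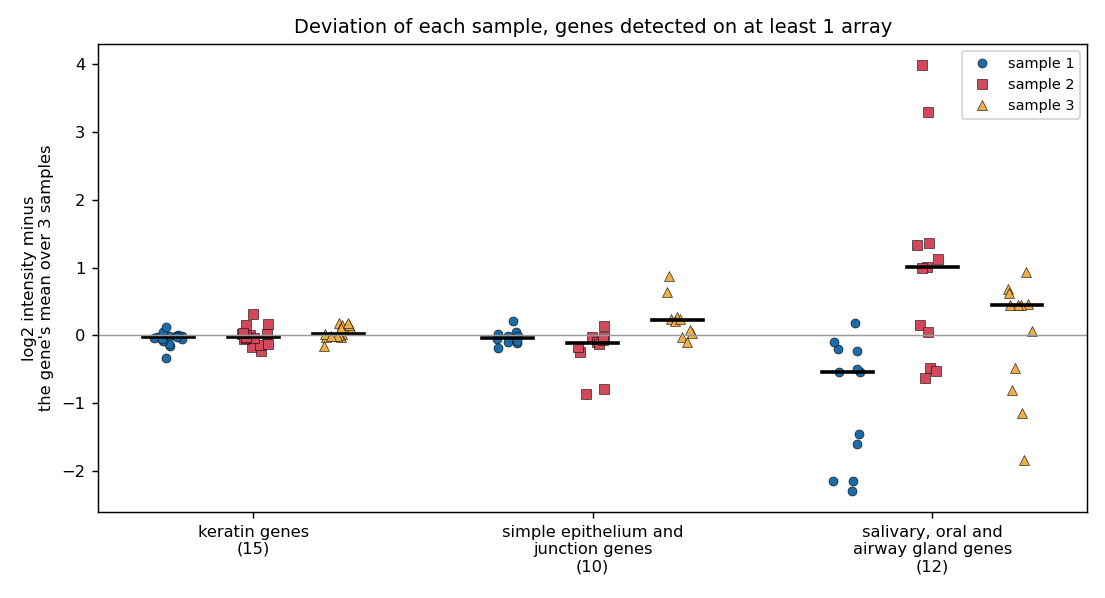
Log2 intensity of each gene minus its own mean over the 3 samples (y axis), for genes detected on at least 1 array: 15 keratins, 10 genes of simple epithelium and junctions, and 12 gland genes. Points are genes, symbols and colours mark samples 1, 2 and 3, and black bars are medians. The keratin medians lie within 0.03 of 0. Those of gland genes run from -0.53 in sample 1 to 1.01 in sample 2, the latter partly set by the choice of genes.

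Other intermediate filament genes gave the setting in which keratins were measured. Of 12 cytoplasmic ones 4 were detected on all 3 arrays, a share below the 60.5% of all genes. Vim, which encodes the vimentin of connective tissue cells and leukocytes, was at 11.89, 12.17 and 11.98, with a mean of 12.01 ± 0.15 (SD, n = 3). Des, the desmin gene of muscle and pericytes, was at 7.61, 8.05 and 8.13, and Nes, the nestin gene, at 6.47, 6.89 and 6.65. Of 3 nuclear lamin genes 2 were detected on all 3 arrays, near the share of all genes, with Lmna at 8.56, 8.86 and 8.40 and Lmnb1 at 9.47, 9.31 and 9.78. None of these 15 genes had a range above 1.

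**Figure D5:**
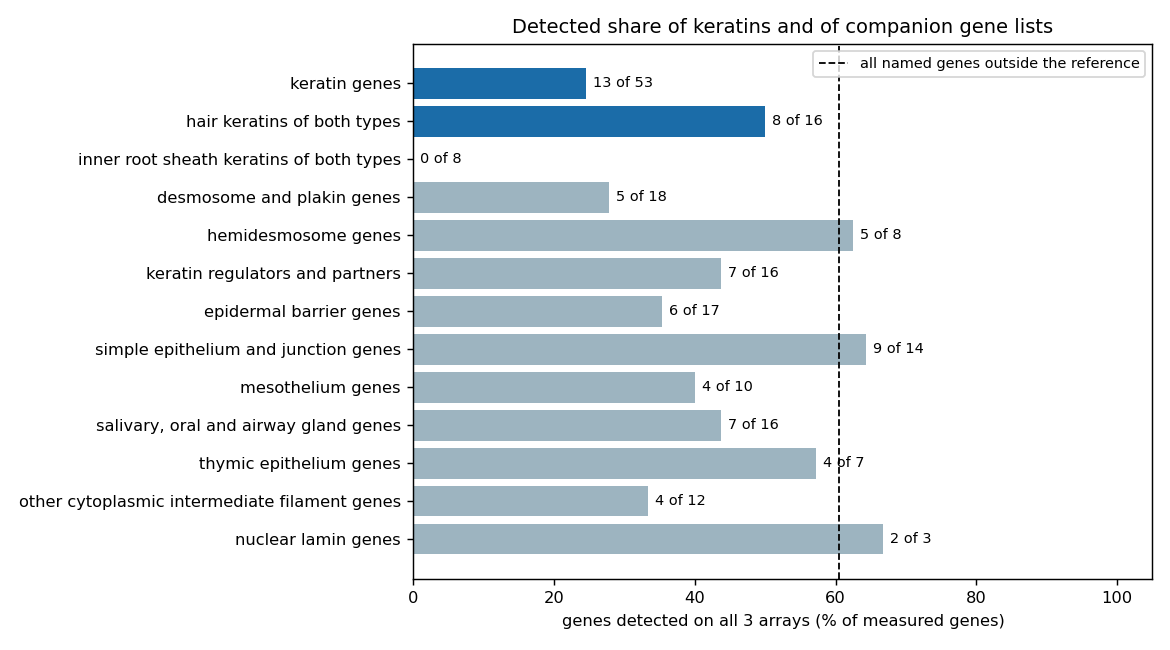
Share of measured genes detected on all 3 arrays (x axis, %), with counts beside the bars: keratins and their hair and inner root sheath groups in dark blue, companion lists in grey-blue. The dashed line is the 60.5% of all named genes outside the receptor reference; keratins reach 13 of 53, hair keratins 8 of 16 and inner root sheath keratins 0 of 8.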

How the data were processed

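Biotin-labelled total RNA of 3 samples was measured on Affymetrix arrays, 1 array each, per the labels' protocols. The values deposited by the authors are log2 intensities of probe sets. Partek was among the tools, per the submitters' processing notes; the sources used here do not give the background correction, normalization or genome build. That the scale is log2 follows from the values, which ran from 2.00 to 13.18. Array medians were 5.35, 5.34 and 5.36. The number of arrays limits the precision.

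GEO's platform annotation gave 1 symbol for 23094 of 31873 probe sets, several for 1764 and none for 7015. Where a gene had several probe sets, the brightest on average over the arrays stood for it. All 53 keratins matched a RefSeq gene identifier (GRCm38.p6), used for order and biotype. With 1 group there was no test; detection calls, ranges and deviations were computed in Python 3.11.15 with pandas 2.3.3 and tested on simulated data. The gene lists held the keratin roles, desmosome and plakin, hemidesmosome, regulator, barrier, simple epithelium, mesothelium, gland, thymic epithelium, intermediate filament and lamin genes. Members and lists were chosen with earlier results of these data known. Keratins detected on at least 1 array or within 0.3 of the reference were given by value, the rest mostly by range; of each other list the first 3 detected genes and up to 6 with a range above 1 were named. Other genes named were chosen after their values were seen.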

Additional observations from a re-analysis of the deposited data

How the results depend on the processing

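The counts of detected keratins, and the counts of keratins highest in each sample, depended on the processing. Keratins detected on all 3 arrays numbered 13, against 24 with the 90th percentile of the receptors and 1 with the 99th, where the shares of all genes were 72% and 38.1%. On at least 1 array they numbered 15, against 30 and 1. When each array's median served as background, 11 keratins (20.8%) passed on all 3 arrays, beside 57.4% of all genes, and the share of keratins was below that of all genes at each of these 4 settings. None of the 15 had a range above 1 or, with that range, a maximum in sample 2. At a threshold of 1.5-fold 1 of them did in each case, Krt14, which entered only through sample 2. The share of all genes at that threshold is not given here, so this count is not read further. The number highest in sample 1 was 2, against 0 with the 99th percentile, 1 with the array median, 1 among genes detected on all 3 arrays and 8 without a filter. In sample 2 it was 5, against 13 with the 90th percentile, 0 with the 99th and 21 without a filter, and in sample 3 it was 7, against 11, 1 and 20. These settings change which genes enter, by construction. With quantile normalized arrays 7 of the 15 were highest in sample 2 and 6 in sample 3, the other way round from the 5 and 7 of the values as deposited. When each sample was left out in turn, the numbers were 4 and 5 for sample 1. They were 5 and 9 for sample 2 and 8 and 10 for sample 3. The median deviation in sample 3 was 0.019, against 0.18 with the 99th percentile, where 1 gene remained. In sample 2 it was -0.028, against -0.033 and 0.021 with a sample left out, so its sign carries no weight. Mean levels of the 13 genes moved by at most 0.11 over 65 combinations of gene and setting. With 3 values, leaving 1 out cannot move a mean by 1 SD, so those moves show no stability. Averaging probe sets changed no keratin, since each has 1. No paired analysis was possible because there is 1 group.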
